A study of Mus musculus with 28 samples.

Results

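Bladders of p63 knockout embryos at embryonic day 19 (E19) were set against wild-type bladders of the same day. The arrays were chosen by their titles: 2 arrays of knockout bladder E19 (p63 KO) and 2 arrays of wild-type bladder E19 (WT), which are 4 of the 28 arrays of the series. Total RNA was hybridised to the Affymetrix mouse 430 2.0 array, whose probe sets are short sets of oligonucleotides that each read the 3′ end of a transcript. All groups are Balb/c mice with no treatment named. The series also holds bladder of both genotypes at E15 and E18, with 2 arrays a group, and 4 gut regions at E18. Which allele was used, which isoforms of p63 it removes and how many animals gave tissue is not given in the sources used here. Nothing in the labels says that the 2 arrays of a group come from separate animals, so the p-values measure only the spread between samples.

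The p63 protein, encoded in mouse by Trp63, is a transcription factor of the p53 family that is known for its role in stratified epithelia. It marks the basal cells of the epidermis, the oesophagus and the bladder, which hold the epithelium to its basement membrane through hemidesmosomes and contain keratins 5 and 14. The urothelium that lines the bladder has basal, intermediate and umbrella cells, and the umbrella cells make the uroplakins of the luminal membrane. Simple epithelia such as that of the gut have instead a single layer with absorptive cells and with goblet cells that secrete mucins, trefoil peptides and the proteins that fold or process mucus.

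Levels are log2 values as deposited, and a change is KO minus WT on the log2 scale, so that 1 is a doubling. SE is the standard error from limma, and the adjusted p is that of limma after Benjamini-Hochberg correction over 13613 genes, with 1 probe set a gene. A gene is said to have risen or fallen where the adjusted p was under 0.05. A design of 2 arrays against 2 cannot give an exact permutation p below 0.333, so calls rest on a spread pooled over the 14 groups of the series.

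Sex-linked genes separated the E19 groups completely. Xist, the RNA that silences 1 X chromosome in female cells, read 5.82 and 6.49 in KO bladders, against 12.62 and 12.99 in WT bladders. Eif2s3y, a gene of the Y chromosome, read 11.65 and 11.59 in KO bladders, against 4.59 and 4.48 in WT bladders. Kdm5d and Uty, also Y-linked, lay between 9.47 and 10.08 in KO bladders, against 3.80 to 4.12 in WT bladders. Both KO arrays thus carried the male pattern and both WT arrays the female pattern, and genotype and sex cannot be told apart at E19. Kdm6a, an X-linked gene that escapes silencing, was at 10.06 and 10.32 in KO bladders, against 11.03 and 11.07 in WT bladders. At E18 the pattern was another one, with Xist at 12.74 and 12.87 in KO bladders and at 6.003 and 12.99 in WT bladders. The change of Xist at E19 was -6.65 with an SE of 2.71 (adjusted p = 0.0896), where the pooled spread includes groups whose 2 arrays carry different patterns. A fit that carries the Y-linked level as a covariate, chosen after seeing the data, called 2092 genes, of which 1931 were among the 2721 called without it. With the Xist level as the covariate 2180 genes were called, and 1927 of them were among the 2721. In these fits the effect of sex is estimated from groups whose 2 arrays differ in the covariate, and not from E19. On replicate 2 of each KO gut group both markers were low, with Xist at 6.05 to 6.29 and Eif2s3y at 4.06 to 4.19, which is neither pattern. The Y-linked covariate places these arrays with the female pattern and the Xist covariate with the male one.

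The E19 arrays also stood apart from the other 24 arrays. Their medians were 7.48 to 7.53, against 7.73 to 7.86 on the other arrays. The control probe sets for dap, a bacterial RNA added as a labelling control, read 11.23 to 11.74 on the E19 arrays and 3.80 to 4.29 on the others. Bladder arrays of E19 correlated with those of E15 and E18 at 0.78 to 0.88, against 0.91 to 0.99 among those of E15 and E18. Stage and this technical difference cannot be told apart for levels, and only KO minus WT changes within a stage are set side by side here. Whether the technical difference also alters the size of these changes was not tested. The 3′ minus 5′ difference for actin, a measure of RNA quality, was 0.64 and 0.68 in KO bladders and 0.70 on both WT arrays.

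**Figure D1:**
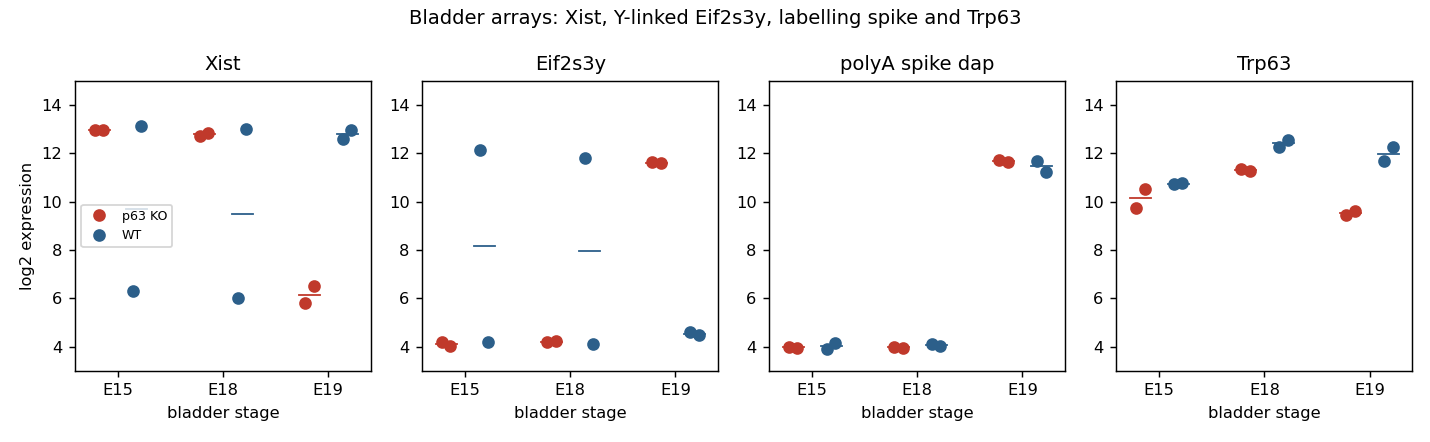
Log2 levels of Xist, Y-linked Eif2s3y, the labelling control dap and Trp63 (its probe set with the highest mean) on the 12 bladder arrays, by stage, with p63 KO arrays left of WT arrays (points, 1 per array; short lines, group means). At E19 the KO arrays have low Xist and high Eif2s3y and the WT arrays the reverse, dap is high on all E19 arrays alone, and Trp63 is lower on both KO arrays.

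Trp63 itself was lower in KO bladder E19. Its probe set with the highest mean read 9.44 and 9.62 in KO bladders, still above the array medians, against 11.67 and 12.28 in WT bladders. The change was -2.44 with an SE of 0.38 (adjusted p = 1.55e-04), or 5.44-fold lower, and the groups did not overlap. Another kept probe set changed by -0.43 (adjusted p = 0.126) and one more by -0.73 (adjusted p = 0.104), both tested among all kept probe sets. The one at -0.43 lay below the E19 array medians in both genotypes, at 5.79 and 5.31 in KO bladders and 6.13 and 5.84 in WT bladders. The mean of the kept probe sets of Trp63 changed by -1.20. The last probe set was too low to be kept, with a mean of 5.33 ± 0.23 in KO bladders and 5.82 ± 0.32 in WT bladders (SD, n = 2 each). Where these probe sets lie relative to the deleted part is not known here, so their level does not check the allele. In bulk tissue, fewer cells that make a transcript and less of it per cell cannot be told apart.

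Many genes differed between KO and WT bladder E19. Of 13613 genes 2721 were called, which is 20.0%, and 1836 of them (13.5%) were higher and 885 (6.5%) lower in KO bladder. A change of at least 2-fold was called for 606 genes (4.45%), 402 higher (2.95%) and 204 lower (1.5%). The 2 KO values did not overlap with the 2 WT values for 64.6% of all genes, 41.5% on the higher and 23.2% on the lower side. The median change of all genes was 0.09. X-linked genes were called at 17.0% (73 of 429) and autosomal genes at 20.1% (2640 of 13119). Leaving out 1 array lowered the count, to 1364 without KO replicate 2, to 1435 without KO replicate 1, to 1666 without WT replicate 1 and to 1990 without WT replicate 2. At E18 441 genes (3.24%) were called, and at E15 959 genes (7.04%). Of the 213 genes higher at E18, 123 (57.7%) were also higher at E19, where they made up 6.7% of the 1836. Of the 228 genes lower at E18, 115 (50.4%) were also lower at E19, 13.0% of the 885. Opposite calls were made for 31 genes that were higher at E19 and lower at E18, and for 0 genes the other way round.

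Basal cell genes were lower in KO bladder E19. Among 22 tested genes of basal stratified epithelium 14 fell and 1 rose, with a median change of -1.32, where 6.5% of all genes fell, 13.5% rose and the median was 0.09. Trp63 is itself a member of this list, so 1 of the 14 falls (-2.44) is that of the targeted gene. Krt5, the type II keratin of basal cells, read 7.37 and 7.51 in KO bladders, against 12.54 and 12.35 in WT bladders. Its change of -5.01 (SE 0.19, adjusted p = 3.06e-13) was a 32.2-fold reduction. Krt15, a keratin of basal and progenitor cells, read 9.28 and 9.24 in KO bladders, against 14.01 and 14.07 in WT bladders, a change of -4.78 (SE 0.54, adjusted p = 6.44e-06). Krt14, the type I partner of Krt5, read 7.89 and 7.69 in KO bladders, against 11.35 and 10.52 in WT bladders. It changed by -3.14 (SE 0.46, adjusted p = 9.49e-05), and for all 3 keratins the groups lay far apart. Lypd3, a membrane-anchored Ly6-family protein of stratified epithelium, read 4.96 and 5.27 in KO bladders, against 7.70 and 7.72 in WT bladders (change -2.60, adjusted p = 1.29e-05). Dapl1, an early epithelial differentiation gene, read 6.94 and 6.25 in KO bladders, against 9.23 and 9.11 in WT bladders (change -2.58, adjusted p = 7.30e-07). Ngfr, the low-affinity neurotrophin receptor, was the member that rose, by 0.75 (adjusted p = 0.0313), and it is expressed by nerves and mesenchyme as well as by basal cells. Its call was lost without either KO array, without WT replicate 1 and with the Xist covariate. With either sex covariate 14 members fell, and 12 to 14 fell when 1 array was left out.

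Genes that anchor the epithelium to its basement membrane were lower as well. Of 15 tested hemidesmosome and basement membrane genes 6 fell and 0 rose, and 9 did not pass, with a median of -0.37, against 6.5% of all genes that fell. Itgb4, Col17a1 and Itga6 are also members of the basal list, so they were counted among the falls there too. Itgb4, the integrin subunit at the core of the hemidesmosome, read 7.02 and 7.07 in KO bladders, against 9.88 and 9.09 in WT bladders (change -2.44, SE 0.35, adjusted p = 6.49e-05). Col17a1, the transmembrane collagen of hemidesmosomes, read 6.91 and 7.01 in KO bladders, against 9.36 and 9.01 in WT bladders (change -2.23, SE 0.30, adjusted p = 3.57e-05). Lamb3 and Lama3 encode laminin chains of the epithelial basement membrane. Lamb3 changed by -2.41 (adjusted p = 3.79e-05) and Lama3 by -2.09 (adjusted p = 3.43e-04). Col7a1, the collagen of the anchoring fibrils below, changed by -1.46 (adjusted p = 1.55e-05), and Itga6, the partner of Itgb4, by -0.64 (adjusted p = 0.00783), a call lost without KO replicate 1 and without WT replicate 1. The change of these genes at E18 was similar in size for Lama3 (-2.22) and Col7a1 (-1.35), while Itga6 did not pass there (-0.39, adjusted p = 0.232).

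Secretory genes of goblet cells were higher in KO bladder E19. Among 22 tested goblet and mucous cell genes 14 rose and 0 fell, with a median change of 1.41, against 13.5% of all genes that rose. Guca2a, which encodes guanylin, the ligand of guanylate cyclase C in the gut, read 11.82 and 11.86 in KO bladders, against 7.58 and 7.28 in WT bladders. Its change was 4.41 (SE 0.23, adjusted p = 5.88e-11), or 21.3-fold. Tff3, the trefoil peptide of goblet cells, read 11.92 and 11.94 in KO bladders, against 7.37 and 7.80 in WT bladders (change 4.35, SE 0.20, adjusted p = 7.81e-12). Clca1, a secreted protease that processes goblet cell mucus, read 11.23 and 11.28 in KO bladders, against 7.15 and 6.97 in WT bladders. It changed by 4.20 (SE 0.69, adjusted p = 2.81e-04), and by 2.39 as the mean of its kept probe sets. Agr2, a disulfide isomerase needed to fold mucins, read 12.34 and 12.26 in KO bladders, against 9.04 and 9.08 in WT bladders (change 3.24, adjusted p = 4.41e-09). Reg4, a secreted lectin of gut epithelium, read 8.91 and 8.90 in KO bladders, against 5.42 and 6.24 in WT bladders (change 3.08, adjusted p = 3.45e-04). Values within KO bladder were close to each other for all 5 genes, and the groups did not overlap.

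Regulators and mucins of the same cells had smaller changes. Spdef, a transcription factor of goblet cell maturation, changed by 1.34 (adjusted p = 0.0181), and Foxa3, another goblet cell factor, by 1.23 (adjusted p = 0.00198). Muc2, the gel-forming mucin of intestinal goblet cells, read 8.06 and 8.02 in KO bladders, against 6.53 and 6.62 in WT bladders (change 1.47, adjusted p = 0.0201). Muc2 lost its call in each fit that left out 1 array and with either sex covariate, and Spdef without either KO array and without WT replicate 1. Muc13, a membrane mucin, changed by 1.58 (adjusted p = 0.00116), and Fcgbp, a mucus protein, by 1.56 (adjusted p = 7.71e-04). Trefoil factors of the stomach differed from Tff3, with a change of -0.04 for Tff1 (adjusted p = 0.972) and -0.02 for Tff2 (adjusted p = 0.962). The gastrokines Gkn2 and Gkn3, secreted by stomach surface cells, changed by 2.59 (adjusted p = 0.0148) and 2.57 (adjusted p = 0.00168). Gkn2 lost its call without either KO array and without WT replicate 2. The goblet list had 12 higher members with either sex covariate and 11 to 12 when 1 array was left out.

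Some genes of absorptive cells rose as well, while the intestinal factors Cdx1, Cdx2 and Hnf4a did not pass the test. Of 19 tested genes of intestinal absorptive cells 7 rose and 0 fell, with a median of 0.57, and of all genes 13.5% rose. The list was chosen with earlier results of these data known, and it holds Sval1 and Anxa13, which are among the largest increases at E19. Its share is therefore not an independent test. Whether Sval1 marks absorptive cells was not tested. Sval1 read 8.36 and 8.23 in KO bladders, against 4.52 and 4.57 in WT bladders (change 3.75, SE 0.43, adjusted p = 8.07e-06). Anxa13, an annexin of the intestinal brush border, read 8.96 and 8.73 in KO bladders, against 5.83 and 5.14 in WT bladders (change 3.36, SE 0.24, adjusted p = 1.21e-08). Vil1, which bundles actin in microvilli, changed by 1.74 (adjusted p = 1.67e-05), and Mptx1, a pentraxin of the gut, by 2.53 (adjusted p = 2.69e-05). Fabp1, a fatty acid binding protein of enterocytes and liver, changed by 2.54 (adjusted p = 0.0175), a call that was lost with either sex covariate and in each fit that left out 1 array, and it was at 1.67 with its probe sets averaged (adjusted p = 0.0793). Cdx1, a homeobox factor of intestinal identity, read 5.85 and 5.66 in KO bladders and 5.72 and 5.76 in WT bladders (change 0.01, adjusted p = 0.980). Cdx2, its close relative, read 5.19 and 5.80 in KO bladders and 5.88 and 5.95 in WT bladders (change -0.42, adjusted p = 0.250). Hnf4a, a nuclear receptor of gut and liver, changed by 0.43 (adjusted p = 0.227).

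**Figure D2:**
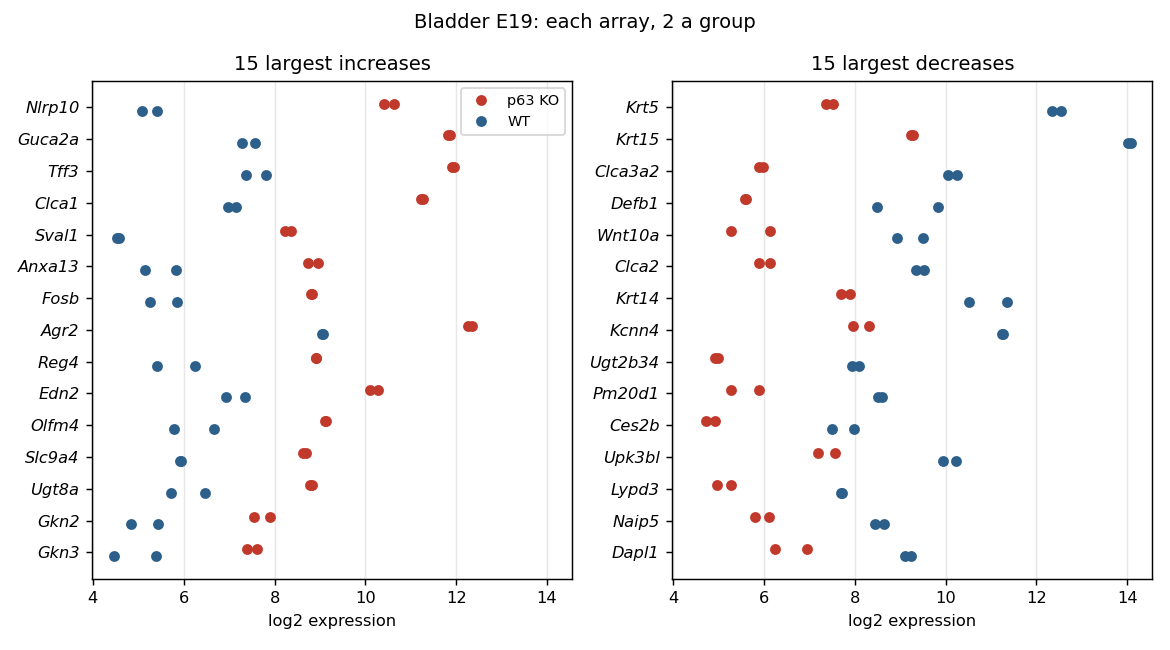
Log2 levels on each E19 bladder array for the 15 largest increases and the 15 largest decreases among called genes whose groups do not overlap (red, p63 KO, 2 arrays; blue, WT, 2 arrays). Nlrp10 and Krt5 show the widest gaps, and both KO points are close together for most genes.

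The other genes among the 15 largest increases have varied roles. Nlrp10, a NOD-like receptor without leucine-rich repeats, led the increases, with a change of 5.28 (SE 0.51, adjusted p = 1.02e-06) and with 10.42 and 10.62 in KO bladders, against 5.41 and 5.08 in WT bladders. Edn2, which encodes the peptide endothelin 2, read 10.28 and 10.10 in KO bladders, against 7.35 and 6.93 in WT bladders (change 3.05, adjusted p = 1.87e-06). Olfm4, a secreted glycoprotein of the gut, changed by 2.89 (adjusted p = 7.31e-06). Slc9a4, a sodium-proton exchanger of stomach and kidney, changed by 2.73 (adjusted p = 1.02e-06), and Ugt8a, which makes galactosylceramide, by 2.71 (adjusted p = 1.19e-05). Fosb, an AP-1 subunit, read 8.81 and 8.80 in KO bladders, against 5.86 and 5.25 in WT bladders (change 3.25, SE 1.06, adjusted p = 0.0343), and its call was lost in each fit that left out 1 array and with either sex covariate. At E18, 10 of the 15 genes were also called higher, where 1.56% of all genes were. At E15 1 of them was, Anxa13, where 4.55% of all genes were.

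The other genes among the 15 largest decreases also have varied roles, and Wnt10a and Upk3bl are described with their lists. Clca3a2 and Clca2, of the chloride channel accessory family to which Clca1 also belongs, fell while Clca1 rose. Clca3a2 read 5.98 and 5.88 in KO bladders, against 10.05 and 10.26 in WT bladders (change -4.23, adjusted p = 2.13e-04). Clca2 read 5.89 and 6.14 in KO bladders, against 9.35 and 9.52 in WT bladders (change -3.42, adjusted p = 1.30e-07). Defb1, a constitutive beta-defensin, read 5.57 and 5.60 in KO bladders, against 9.83 and 8.48 in WT bladders (change -3.57, adjusted p = 1.40e-07). Among 16 tested genes of mucosal defence 5 fell and 2 rose, where 6.5% of all genes fell and 13.5% rose, and Muc15, a membrane mucin, was another that fell (-2.34, adjusted p = 0.00105). That list was chosen with earlier results of these data known, and it holds Nlrp10, Defb1, Clca3a2 and Clca2. Its shares are therefore not an independent test. Naip5, the flagellin sensor of an inflammasome, read 5.81 and 6.11 in KO bladders, against 8.65 and 8.44 in WT bladders (change -2.58, adjusted p = 9.92e-07). Kcnn4, a calcium-activated potassium channel, changed by -3.12 (adjusted p = 2.85e-06). The conjugating enzyme Ugt2b34 changed by -3.06 (adjusted p = 5.88e-11), the carboxylesterase Ces2b by -2.92 (adjusted p = 3.06e-05) and Pm20d1, an enzyme of N-acyl amino acids, by -2.97 (adjusted p = 1.69e-06). The mean of its probe sets put Pm20d1 at -1.84. Of the 15 largest decreases 14 were also called lower at E18, where 1.67% of all genes were, with Naip5 the exception, and 3 at E15, where 2.49% were.

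Few genes of urothelial differentiation passed the test. Of 19 tested 1 rose and 1 fell, and 17 did not pass, with a median of 0.16. The 1 of 19 on each side is below the 13.5% of all genes that rose and the 6.5% that fell. Upk1b, a uroplakin of the luminal plaques, read 13.89 and 13.93 in KO bladders, against 13.72 and 13.78 in WT bladders (change 0.16, adjusted p = 0.554). Upk3a changed by 0.15 (adjusted p = 0.634), Upk1a by 0.41 (adjusted p = 0.259) and Upk2 by 0.52 (adjusted p = 0.242). The defining markers of bladder were thus present on all 4 arrays, as was Acta2 of smooth muscle, at 15.20 on both KO arrays and at 15.14 and 15.19 on the WT arrays. A further label field speaks of stem cells, and these markers include those of umbrella cells and of smooth muscle. Which part of the bladder was taken is not known here. Elf3, an epithelial ETS factor, was the gene that rose, with 11.13 and 11.14 in KO bladders and 10.04 and 9.72 in WT bladders (change 1.25, adjusted p = 4.30e-04). Upk3bl, a uroplakin 3-like gene, fell by 2.71 (adjusted p = 7.10e-04), with 7.19 and 7.57 in KO bladders and 10.22 and 9.95 in WT bladders. Fitted on the 4 E19 arrays alone, 9 members of the list were called higher, and on the 12 bladder arrays 6 were.

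Of 31 tested squamous genes 2 fell, a share near the 6.5% of all genes that fell, and 29 did not pass, and their mean log2 level was 7.21 and 7.26 on the KO arrays and 7.43 and 7.34 on the WT arrays. Ivl, the envelope precursor involucrin, read 9.99 and 9.65 in KO bladders, against 12.06 and 11.22 in WT bladders (change -1.82, adjusted p = 3.39e-04). Its change differed from that at E18 (-0.01) by -1.82 (adjusted p = 0.0180), a call lost without KO replicate 2 and without WT replicate 1. Krt13, a keratin of suprabasal and urothelial cells, changed by -1.63 (adjusted p = 3.38e-04), with 4.93 and 5.35 in KO bladders and 6.88 and 6.65 in WT bladders. All of these Krt13 values lie below the E19 array medians. With its probe sets averaged Krt13 was at -1.04. Of 24 simple epithelial genes 7 rose and 2 fell, where 13.5% of all genes rose and 6.5% fell. Tspan1, a tetraspanin of secretory epithelia, changed by 1.88 (adjusted p = 5.05e-04) and by 1.08 with its probe sets averaged, while the pan-epithelial Epcam (0.14, adjusted p = 0.469) and Cdh1 (-0.12, adjusted p = 0.572) did not pass. Of the keratins of simple epithelia, Krt8 and Krt18 each changed by 0.25, with adjusted p of 0.0516 and 0.0867. Krt7, a further one, fell (-0.77), a call lost with either sex covariate and in each fit that left out 1 array. Prom1 was the other member that fell (-0.64). Of this list 2 to 3 rose when 1 array was left out and 2 or 3 with a sex covariate.

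**Figure D3:**
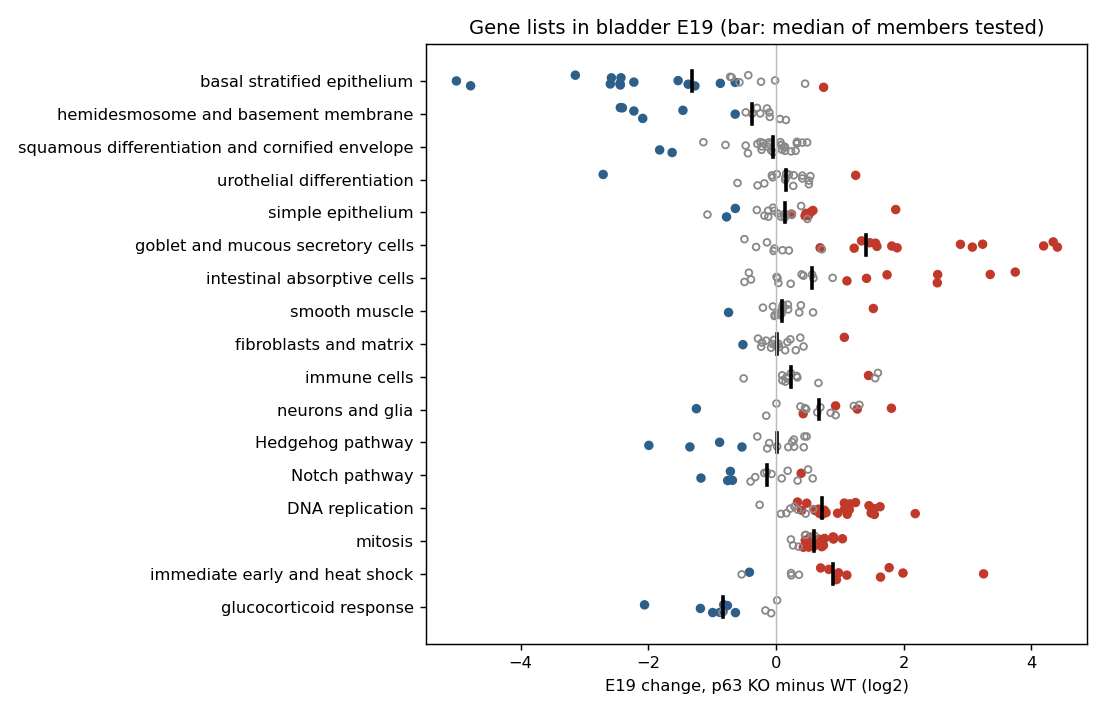
E19 change (p63 KO minus WT, log2) of each tested member of 17 gene lists, with a black bar at the median of the members (filled red, risen; filled blue, fallen; open grey, adjusted p not under 0.05). Basal genes lie to the left, with a median of -1.32, and goblet, replication and immediate early genes to the right, while urothelial, smooth muscle and fibroblast genes sit around 0.

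Genes of DNA replication and mitosis were higher in KO bladder E19. Before S phase the MCM helicase is loaded onto origins by Orc1, Cdc6 and Cdt1, and it then starts replication with DNA polymerase alpha. Of 31 tested replication genes 23 rose and 0 fell, with a median change of 0.72, and of 21 mitosis genes 15 rose and 0 fell, with a median of 0.59. Of all genes tested 13.5% were called higher. E2F factors drive many genes of the G1 to S transition, and a cell cycle homology region (CHR) is known from promoters of mitotic genes. The 4 E2F octamers TTTGGCGC, TTTCGCGC, TTTCCCGC and TTTGCCGC, and the CHR letters TTTGAA and TTCGAA, were searched on both strands from 250 bases before to 50 after each start (RefSeq, GRCm38.p6). The E2F and CHR letters do not contain each other. The 5 promoters printed were picked from called members that hold a match, by the largest E19 change, with the matched letters in capitals. Called members without a match were passed over, such as Mcm2 (change 1.63) and Mcm10 (1.54) for E2F letters and Birc5 (0.91) for CHR letters. The Cdc6 match starts 138 bases before the start (chr11:98907901-98908200, plus strand), that of Uhrf1 185 bases before (chr17:56304063-56304362, plus strand) and that of Pola1 138 bases before (chrX:93632106-93632405, minus strand), all to E2F letters. The CHR matches lie 14 bases after the start in Bub1 (chr2:127831810-127832109, minus strand) and 19 bases before it in Kif11 (chr19:37376132-37376431, plus strand).
Cdc6: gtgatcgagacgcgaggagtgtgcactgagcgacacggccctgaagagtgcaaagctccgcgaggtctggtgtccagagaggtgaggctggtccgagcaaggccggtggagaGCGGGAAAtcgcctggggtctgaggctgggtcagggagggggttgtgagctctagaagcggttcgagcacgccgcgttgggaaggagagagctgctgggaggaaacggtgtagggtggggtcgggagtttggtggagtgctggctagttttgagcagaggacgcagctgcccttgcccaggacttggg
Uhrf1: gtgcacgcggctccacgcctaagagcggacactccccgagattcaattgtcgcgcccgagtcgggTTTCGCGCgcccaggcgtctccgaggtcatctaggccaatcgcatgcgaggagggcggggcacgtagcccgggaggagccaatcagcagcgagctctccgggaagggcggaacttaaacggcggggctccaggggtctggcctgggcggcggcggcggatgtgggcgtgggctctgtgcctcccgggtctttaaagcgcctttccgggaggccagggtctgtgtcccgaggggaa
Pola1: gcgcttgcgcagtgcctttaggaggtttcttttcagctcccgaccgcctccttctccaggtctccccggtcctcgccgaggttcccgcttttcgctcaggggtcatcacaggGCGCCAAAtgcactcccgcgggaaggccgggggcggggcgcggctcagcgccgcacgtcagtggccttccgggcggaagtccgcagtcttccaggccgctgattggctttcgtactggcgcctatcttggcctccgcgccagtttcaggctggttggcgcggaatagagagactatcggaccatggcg
Bub1: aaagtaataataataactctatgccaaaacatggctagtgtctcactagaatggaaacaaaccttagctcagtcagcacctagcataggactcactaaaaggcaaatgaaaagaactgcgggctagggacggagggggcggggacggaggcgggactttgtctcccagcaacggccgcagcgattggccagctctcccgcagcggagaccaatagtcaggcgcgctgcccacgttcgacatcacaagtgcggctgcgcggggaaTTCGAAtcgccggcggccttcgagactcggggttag
Kif11: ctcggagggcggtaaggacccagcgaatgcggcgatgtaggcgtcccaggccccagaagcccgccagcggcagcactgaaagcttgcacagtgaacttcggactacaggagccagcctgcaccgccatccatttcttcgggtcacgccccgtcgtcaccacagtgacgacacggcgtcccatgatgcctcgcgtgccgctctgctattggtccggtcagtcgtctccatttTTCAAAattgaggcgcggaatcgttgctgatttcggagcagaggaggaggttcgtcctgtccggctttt

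An E2F match was found in 11 of the 26 tested replication genes with a promoter in the table, which is 42.3%, and in 1 of 17 mitosis genes. An E2F match was held by 2.6% of all 27025 genes with a promoter in the table and by 4.42% of the 10924 tested ones. A gene was counted where any of its promoters matched. A CHR match was found in 14 of 17 mitosis genes (82.4%) and in 7 of 26 replication genes (26.9%). Of all genes with a promoter 21.7% held one, and of the tested ones 16.5%. A match describes the letters in this window and does not show that a factor binds there.

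**Figure D4:**
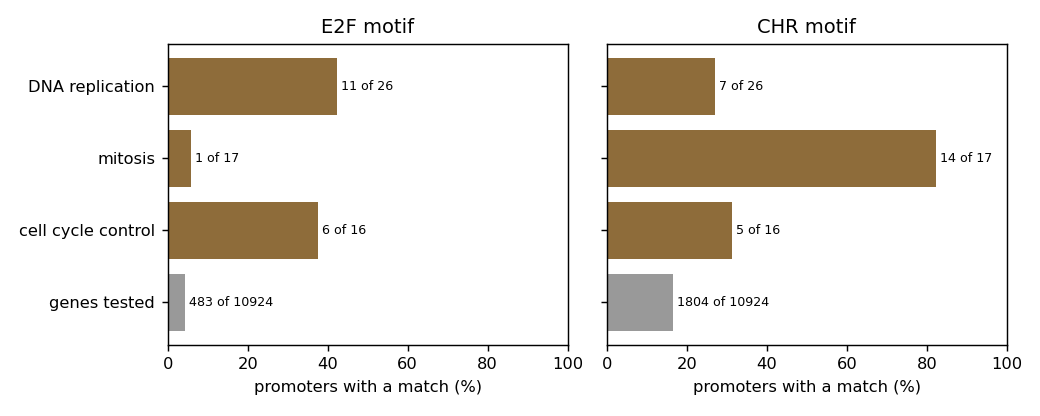
Share of genes (in %) with an E2F match or a CHR match in any promoter in the table (250 bases before to 50 after the start). Tested members of 3 gene lists and all tested genes are shown, with the counts beside the bars. E2F matches are most frequent among replication genes (42.3%) and CHR matches among mitosis genes (82.4%).

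Among the licensing genes Cdc6, which loads the helicase, had the largest change. It read 10.65 and 10.80 in KO bladders, against 8.29 and 8.79 in WT bladders (change 2.18, SE 0.26, adjusted p = 8.85e-06), or 4.54-fold. Mcm2, a helicase subunit, read 10.98 and 11.12 in KO bladders, against 9.32 and 9.51 in WT bladders (change 1.63, adjusted p = 1.86e-05). Mcm5, another subunit, read 11.39 and 11.43 in KO bladders, against 9.74 and 10.16 in WT bladders (change 1.46, adjusted p = 1.71e-04). Further members of the complex were Mcm3 (1.12, adjusted p = 9.78e-04) and Mcm6 (0.79, adjusted p = 0.00192), and Mcm4 did not pass (0.58, adjusted p = 0.0538). Mcm10, which helps to activate the helicase, changed by 1.54 (adjusted p = 3.16e-04), and by 0.96 as the mean of its probe sets. Pola1, the catalytic subunit of polymerase alpha and an X-linked gene, read 9.63 and 9.35 in KO bladders, against 8.08 and 7.91 in WT bladders (change 1.49, adjusted p = 3.07e-05). Uhrf1, which guides methylation of newly made DNA, changed by 1.54 (adjusted p = 6.54e-06). The KO and WT values of these genes did not overlap, and no member of the list fell.

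Mitosis genes had smaller changes. Bub1, a kinase of the spindle checkpoint, read 10.30 and 10.60 in KO bladders, against 9.33 and 9.48 in WT bladders (change 1.04, SE 0.16, adjusted p = 1.41e-04). Kif11, the motor that separates spindle poles, read 10.01 and 10.07 in KO bladders, against 9.13 and 9.14 in WT bladders (change 0.90, SE 0.15, adjusted p = 2.22e-04). Birc5, a subunit of the chromosomal passenger complex, changed by 0.91 (adjusted p = 1.52e-04), Aurka, a spindle pole kinase, by 0.89 (adjusted p = 0.00130) and Bub1b, a checkpoint protein, by 0.76 (adjusted p = 0.00380). The proliferation marker Mki67 changed by 0.59 (adjusted p = 0.0113), a call lost without either KO array and without WT replicate 1. All 21 tested members had non-overlapping groups on the higher side, where 41.5% of all genes did. With the sex covariates 23 and 26 replication genes and 15 and 16 mitosis genes were higher. When 1 array was left out, 17 to 21 replication genes and 9 to 11 mitosis genes were.

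Among the regulators of the cycle 9 of 22 rose and 3 fell, against 13.5% and 6.5% of all genes. When 1 array was left out 5 to 6 rose and 0 to 3 fell. Ccne1 (0.86, adjusted p = 0.0130) and Ccne2 (0.91, adjusted p = 0.00450), the cyclins of S-phase entry, and Ccnd1, a G1 cyclin (0.72, adjusted p = 3.99e-04), were higher. Ccne1 lost its call without either KO array and without WT replicate 1, and Ccne2 without WT replicate 2. E2f2 changed by 1.03 (adjusted p = 0.00462), a call lost without WT replicate 1, where it read 5.56, against 6.36 in the other WT array. E2f8, an atypical E2F that represses replication genes, changed by 0.98 (adjusted p = 2.80e-04), but by 0.24 with its probe sets averaged (adjusted p = 0.471). The genes that fell were Cdkn1a, the p21 inhibitor of cyclin-dependent kinases (-0.90, adjusted p = 0.0127), Ccnd2 (-0.68, adjusted p = 0.00231) and Cdk6 (-0.65, adjusted p = 0.0300). Cdkn1a lost its call without KO replicate 1 and without WT replicate 1, Ccnd2 without WT replicate 1, and Cdk6 without either KO array, without WT replicate 1 and with either sex covariate.

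The change of the cell cycle genes at E19 differed from that at the earlier stages. At E18 0 replication genes were higher and 3 were lower, with a median of -0.40, and 0 mitosis genes were higher and 8 lower, with a median of -0.44. At E15 0 members of either list were called, with medians of 0.02 in both. The difference of the E19 and E18 changes, tested in the same fit, was called for 718 genes (5.27%), of which 542 (3.98%) were higher at E19 and 176 (1.29%) lower. It was called higher for 21 of 31 replication genes and 17 of 21 mitosis genes, and the difference from E15, called higher for 5.08% of all genes, for 13 and 7 of them. The calls against E15 were all lost with the 3′ minus 5′ difference of actin, a sign of RNA quality, as a covariate, where medians of the difference were 0.81 and 0.66. For Mcm5 the change was -0.89 at E18 and the difference 2.35 (adjusted p = 2.61e-04). For Cdc6 the E18 change was 0.00 and the difference 2.19 (adjusted p = 0.00121). Uhrf1 differed by 2.08 (adjusted p = 1.33e-04), Pola1 by 2.11 (adjusted p = 2.09e-04), Bub1 by 1.74 (adjusted p = 2.09e-04) and Kif11 by 1.47 (adjusted p = 2.87e-04). KO E18 arrays both had the female pattern and the WT E18 arrays were 1 of each, so sex moves with this difference too. With the Y-linked covariate the difference was called for 20 replication and 16 mitosis genes, and with the Xist covariate for 26 and 17.

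**Figure D5:**
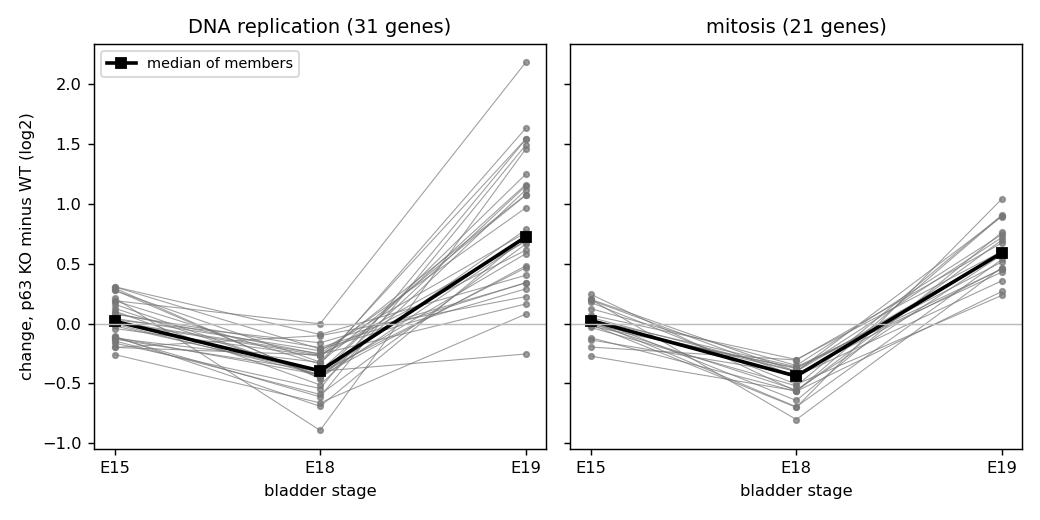
KO minus WT change (log2) at E15, E18 and E19 of the tested replication genes (31) and mitosis genes (21), each grey line a gene and the black line the median of the members. The medians are near 0 at E15, at -0.40 and -0.44 at E18 and at 0.72 and 0.59 at E19.

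Beyond the cell cycle, 8 genes each way led the difference between the E19 and E18 changes. On the higher side were Edn2 (difference 3.45, adjusted p = 2.08e-04), Lrr1, a ubiquitin ligase subunit that acts when replisomes are taken apart (2.97, adjusted p = 4.34e-04), and Fos, an immediate early AP-1 subunit (2.43, adjusted p = 0.0187). Col4a4, a chain of basement membrane collagen IV, differed by 2.30 (adjusted p = 0.00253), Cntn3, a neuronal adhesion protein, by 2.27 (adjusted p = 0.00388) and Tet1, which oxidises 5-methylcytosine, by 2.15 (adjusted p = 0.00281). Tet1 read 11.09 and 11.03 in KO bladders E19, against 8.37 and 9.26 in WT bladders E19. As means of their probe sets the E19 changes were smaller, 1.34 for Lrr1, 1.20 for Cntn3 and 1.25 for Tet1. Mcm5 and Cdc6 complete these 8. The difference for Fos lost its call without either KO array, without WT replicate 1 and with the Y-linked covariate.

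On the lower side Galnt15, a glycosyltransferase that starts O-glycans, differed by -2.52 (adjusted p = 0.00578) and Dynap by -2.44 (adjusted p = 0.00718). Cxcl14, an epithelial chemokine, read 7.04 and 6.72 in KO bladders E19, against 9.35 and 9.40 in WT bladders E19, and its change differed from that at E18 by -2.43 (adjusted p = 0.00420). Ddx4, an RNA helicase known from germ cells, read 5.59 and 5.37 in KO bladders E19, against 8.003 and 7.90 in WT bladders E19 (difference -2.31, adjusted p = 4.11e-04). Naip5 differed by -2.38 (adjusted p = 4.11e-04) and the pentraxin Ptx3 by -2.37 (adjusted p = 0.00128). For the other 2 genes the E19 change did not pass, and the gene was higher in KO bladder at E18. Serpina3n, an acute-phase protease inhibitor, changed by -0.85 at E19 (adjusted p = 0.145) and by 1.47 at E18, a difference of -2.32 (adjusted p = 0.0197). Mmp7, the matrix protease matrilysin, changed by 0.54 at E19 (adjusted p = 0.207) and by 2.77 at E18, a difference of -2.23 (adjusted p = 0.00320). The difference lost its call without KO replicate 1 for Dynap and for Serpina3n, and for Serpina3n it was also lost without WT replicate 2 and with either sex covariate.

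Sonic hedgehog is made by the urothelium and acts on stromal cells that carry the receptor Ptch1, with Gli1 and the decoy receptor Hhip as targets. Of 15 tested Hedgehog genes 4 fell and 0 rose, where 6.5% of all genes fell. Shh, the ligand, read 11.59 and 11.62 in KO bladders, against 12.86 and 13.04 in WT bladders (change -1.35, SE 0.46, adjusted p = 0.0439). Ptch1 changed by -0.53 (adjusted p = 0.00418) and Gli1 by -0.88 (adjusted p = 0.0393), while Smo, the signal transducer, did not pass (0.44, adjusted p = 0.118). Hhip read 9.14 and 9.08 in KO bladders, against 11.06 and 11.13 in WT bladders (change -1.99, SE 0.17, adjusted p = 2.61e-07). Hhip kept its call in every alternative that tested it, whereas Shh and Gli1 lost theirs in each fit that left out 1 array and with either sex covariate. With those covariates Shh was at -0.79 (adjusted p = 0.241, Y-linked) and -0.48 (adjusted p = 0.383, Xist), and Ptch1 was at -0.33 with its probe sets averaged (adjusted p = 0.256) and lost its call without WT replicate 2. Of this list 2 genes fell and 1 rose with either sex covariate, and 1 to 2 fell when 1 array was left out.

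Of 19 Wnt genes 3 rose, a share near the 13.5% of all genes that rose, and 3 fell, where 6.5% of all genes fell. When 1 array was left out 0 to 3 rose and 2 to 3 fell. The ligand Wnt10a read 6.13 and 5.27 in KO bladders, against 9.50 and 8.93 in WT bladders (change -3.52, SE 0.38, adjusted p = 3.45e-06), or 11.4-fold lower. Wnt4, another ligand, changed by -1.08 (adjusted p = 4.51e-04), and Sfrp2, a secreted Wnt inhibitor, by 0.94 (adjusted p = 0.00809). Sfrp2 lost its call without KO replicate 1 and without WT replicate 1. Of 15 Notch genes 4 fell and 1 rose, where 6.5% of all genes fell and 13.5% rose, and 2 to 3 fell when 1 array was left out. The receptor Notch1 read 10.64 and 10.60 in KO bladders, against 11.22 and 11.45 in WT bladders (change -0.71, adjusted p = 0.00338). Nrarp, a feedback target of Notch, changed by -1.17 (adjusted p = 3.82e-04), and by -0.73 as the mean of its probe sets. The ligand Jag2 changed by -0.68 (adjusted p = 0.0246), and its E18 change was larger, -1.83, with a difference of 1.15 (adjusted p = 0.0240) whose call was lost without either KO array and without WT replicate 2. Its E19 call was lost without WT replicate 1, at 9.36 against 8.57 in WT replicate 2, without either KO array and with either sex covariate. Of 17 genes of BMP and FGF signalling 4 fell and 0 rose, where 6.5% of all genes fell, and 2 fell without either KO array and without WT replicate 2. Fgfr2, the epithelial FGF receptor, read 11.05 and 11.04 in KO bladders, against 12.06 and 11.94 in WT bladders (change -0.95, SE 0.09, adjusted p = 1.13e-06). Bmpr1b, a BMP receptor, changed by -1.02 (adjusted p = 4.74e-04).

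Genes that answer glucocorticoids were lower in KO bladder E19. Of 12 tested 8 fell and 0 rose, with a median of -0.82, where 6.5% of all genes fell. Pdk4, a kinase that holds back glucose oxidation, read 10.87 and 11.11 in KO bladders, against 13.18 and 12.92 in WT bladders (change -2.06, SE 0.27, adjusted p = 2.87e-05). Errfi1, a feedback inhibitor of the EGF receptor, read 12.17 and 12.20 in KO bladders, against 13.46 and 13.27 in WT bladders (change -1.18, SE 0.15, adjusted p = 1.77e-05). Tsc22d3, the glucocorticoid-induced leucine zipper, changed by -0.88 (adjusted p = 0.00426), Klf9, a zinc finger factor, by -0.83 (adjusted p = 0.00687), Fkbp5, a receptor co-chaperone, by -0.82 (adjusted p = 0.00927) and Per1, a clock gene, by -0.76 (adjusted p = 0.00650). Zbtb16 also fell (-0.99). Its call was lost with either sex covariate, without either KO array, without WT replicate 2 and on the 12 bladder arrays alone. The metallothionein Mt1 (0.02) and the kinase Sgk1 (-0.16) did not pass, with adjusted p of 0.951 and 0.633. The change differed from that at E18 for 4 of the 12 genes, Pdk4 by -1.87 (adjusted p = 0.00628), Errfi1 by -1.58 (adjusted p = 2.09e-04), Tsc22d3 by -0.98 (adjusted p = 0.0486) and Per1 by -1.02 (adjusted p = 0.0256). The difference for Tsc22d3 lost its call without either KO array and without WT replicate 1, and its E19 call without WT replicate 1. The E19 call was also lost without KO replicate 2 and without WT replicate 1 for Klf9 and for Per1. For Fkbp5 it was lost without either KO array, without WT replicate 2 and with either sex covariate. The count of genes that fell was 5 with the Y-linked and 6 with the Xist covariate, and 3 to 5 when 1 array was left out.

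Immediate early genes, which respond quickly to growth signals and to stress, were higher. Of 14 immediate early and heat shock genes 9 rose and 1 fell, with a median of 0.89, where 13.5% of all genes rose and 6.5% fell. Fos read 13.84 and 13.85 in KO bladders, against 11.65 and 12.05 in WT bladders (change 1.99, SE 0.41, adjusted p = 0.00202). Egr1, a zinc finger factor, read 13.17 and 13.23 in KO bladders, against 10.96 and 11.88 in WT bladders (change 1.77, adjusted p = 0.0315), and Nr4a1, an orphan nuclear receptor, changed by 1.64 (adjusted p = 0.0493). Zfp36, which destabilises messenger RNA, changed by 1.11 (adjusted p = 0.00388). Of the heat shock genes of the list Hsph1 rose (0.70) and Dnajb1 was the member that fell (-0.415), while Hspa1b did not pass (0.24, adjusted p = 0.601). Hsph1 lost its call without either KO array, without WT replicate 2 and with the Y-linked covariate, among others. Dnajb1 lost its call in each fit that left out 1 array and with the Xist covariate, among others. The WT arrays differed from each other by more than the KO arrays did for Egr1. Of the list 3 to 5 rose when 1 array was left out, 4 with the Y-linked and 6 with the Xist covariate. Fos and Zfp36 kept their calls throughout, and Egr1, Nr4a1 and Fosb did not.

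Some genes of glucose use also rose. Of 12 tested genes of hypoxia and glycolysis 6 rose and 0 fell, with a median of 0.31, and of all genes 13.5% rose. With the Xist covariate 6 rose and 2 fell, and with the Y-linked covariate 6 rose and 1 fell. Slc2a1, the GLUT1 glucose transporter, read 13.61 and 13.55 in KO bladders, against 12.58 and 12.46 in WT bladders (change 1.06, SE 0.12, adjusted p = 4.50e-06), and its change differed from that at E18 by 1.24 (adjusted p = 2.10e-04). Hk2, a hexokinase, changed by 1.40 (adjusted p = 6.63e-04) and Ankrd37, a hypoxia target, by 1.53 (adjusted p = 0.00365). Of 12 tested p53 targets 4 fell and 1 rose, where 6.5% of all genes fell and 13.5% rose. Trp53inp1 (-1.04, adjusted p = 1.28e-04), Perp, a desmosomal target shared with p63 (-0.96, adjusted p = 0.00120), Aen, a nuclease (-0.82, adjusted p = 9.45e-04), and Cdkn1a fell, and Zmat3, an RNA-binding target, rose by 0.65 (adjusted p = 0.00166). With probe sets averaged Trp53inp1 was at -0.65, and Aen was at -0.62 and lost its call (adjusted p = 0.0524). Of 14 ribosome biogenesis genes 6 fell, against 6.5% of all genes, led by Polr1b, a subunit of RNA polymerase I (-0.90, adjusted p = 0.0114), and Nop58, a box C/D snoRNP protein (-0.78, adjusted p = 0.00400). Polr1b lost its call without KO replicate 1 and without WT replicate 1, and Nop58 without KO replicate 1. That list fell to 2 genes with either sex covariate and to 1 to 3 when 1 array was left out.

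Most markers of the other tissues of the bladder wall did not pass the test, where 13.5% of all genes rose and 6.5% fell. Of 20 smooth muscle genes 1 rose and 1 fell, and Myh11, the smooth muscle myosin, read 14.49 and 14.50 in KO bladders and 14.52 and 14.51 in WT bladders. Of 19 fibroblast genes 1 rose and 1 fell, of 16 endothelial genes 0 rose and 1 fell, and of 13 immune genes 1 rose, Ptprc, the pan-leukocyte phosphatase (1.44, adjusted p = 0.00834). Ptprc lost its call without KO replicate 2 and without WT replicate 2. The mean log2 level of the immune markers was 10.41 on both KO arrays and 10.10 and 9.75 on the WT arrays. Mesothelial markers were higher, with 5 of 10 risen and 0 fallen, and a mean level of 9.94 and 9.97 on the KO arrays and 8.94 and 9.51 on the WT arrays. Gpm6a (1.46, adjusted p = 0.00122), Rspo1, a Wnt agonist (1.34, adjusted p = 8.98e-04), and Muc16, a surface mucin (1.28, adjusted p = 0.00268), were among them. With 1 array left out 3 to 5 mesothelial markers rose, and 4 and 3 with the Y-linked and the Xist covariate. Nerve and glia markers had 4 risen and 1 fallen of 16, with a mean level of 8.82 and 8.92 on the KO arrays and 8.13 and 8.35 on the WT arrays. When 1 array was left out 1 to 2 of these rose, and 7 and 5 with the Y-linked and the Xist covariate. Uchl1, a neuronal hydrolase, changed by 1.28 (adjusted p = 5.32e-04). Mbp, a myelin protein, changed by -1.25 (adjusted p = 1.56e-05), but by 0.43 with its probe sets averaged (adjusted p = 0.168), since its probe sets disagree in sign. Liver markers had 1 risen of 7, Ttr (1.65, adjusted p = 0.00195), and the 10 listed genes of Wolffian duct, prostate and kidney were all too low to be tested. The part of other cell types in the results was not tested.

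The E15 bladder gives another stage to set beside E19. The E19 and E15 changes differed for 1170 genes (8.59%), 692 higher (5.08%) and 478 lower (3.51%) at E19. Both KO E15 arrays had the female pattern and the WT E15 arrays were 1 of each, so sex moves with this comparison too. With the Y-linked covariate 817 genes were called, and with the Xist covariate 1186. Krt5 changed by -5.01 at E19 and by -1.24 at E15, a difference of -3.77 (adjusted p = 2.63e-08), and Krt14 by -3.14 at E19 and 0.33 at E15, a difference of -3.48 (adjusted p = 0.00289). Guca2a and Tff3, high in KO bladder E19, had E15 changes of -0.09 and 0.11, with differences of 4.50 (adjusted p = 2.69e-08) and 4.24 (adjusted p = 1.40e-08). Nlrp10 changed by 1.38 at E15, a difference of 3.90 (adjusted p = 0.00257). For Fabp1 the E15 change was 3.06 and the difference -0.52 (adjusted p = 0.814). With the 3′ minus 5′ difference of actin as a covariate the difference from E15 was called for 30 genes, so this count depends on that covariate. At E15 this difference, a measure of RNA quality, was 1.33 and 1.12 on the KO arrays, against 0.69 and 0.78 on the WT arrays, so it moved with genotype there. In the fit with the covariate the differences of Krt5 (-3.60, adjusted p = 2.15e-04), Guca2a (4.29, adjusted p = 2.15e-04) and Tff3 (3.92, adjusted p = 1.19e-04) kept their calls. Those of Krt14 (-3.18, adjusted p = 0.222) and Nlrp10 (3.97, adjusted p = 0.155) lost theirs. Of the replication and mitosis genes 0 were then called by limma for the difference from E15, and 13 and 8 were higher at an unadjusted p under 0.05.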

How the data were processed

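The authors deposited 1 log2 value per probe set and array. Per the submitters' processing notes, Affymetrix Expression Console and Partek were used (no version). How background was corrected, probes summarized and arrays normalized is not given in the sources used here. Precision is limited by the number of arrays. Labelling used biotin, per the labels' protocols.

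The deposited values entered the fit directly. From 45101 probe sets 64 controls were removed, and 34945 of the others carry 1 gene symbol, of which 34741 equal the RefSeq symbol (GRCm38.p6) of the same gene identifier. Probe sets above their array's median on at least 2 arrays were kept (28866), and the one with the highest mean stood for a gene (13613 genes). limma 3.58.1 in R 4.3.3 fitted 14 group means to all 28 arrays, with a variance trend, 14 residual and 6.19 prior degrees of freedom. Tests are two-sided with Benjamini-Hochberg adjustment and calls at an adjusted p under 0.05. The fit was tested on simulated data.

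Named genes are Trp63, the 15 largest increases and decreases (called, groups not overlapping, not sex-linked), the 8 largest differences from E18 each way, and up to 5 called members of each of the gene lists spoken of. Uroplakins, Cdx1, Cdx2, Hnf4a, Hspa1b, Mt1, Sgk1, Mki67, Smo and further list members were named after their values were seen. The members and all 38 lists were chosen with earlier results of these data known. The share of a list set beside that of all genes therefore describes these data and is not an independent test. In total 18 alternatives were run.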

Additional observations from a re-analysis of the deposited data

Results flagged for a closer look

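The KO minus WT change at E19 differed from that at E18, by limma's test of the difference, for 39 of the named genes. The arrays of E19 and E18 are not shared, and KO and WT arrays differ in sex at E19, where both KO arrays show the male and both WT arrays the female pattern. The cause of these differences was not tested.

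Cell cycle genes had a higher change at E19. The difference was 2.35 for Mcm5, 2.19 for Cdc6, 1.97 for Mcm2, 1.87 for Mcm10, 2.08 for Uhrf1 and 2.11 for Pola1. It was 1.74 for Bub1, 1.43 for Birc5, 1.47 for Kif11, 1.30 for Aurka and 1.41 for Bub1b. Among regulators it was 1.56 for E2f8, 1.61 for Ccne2 and 1.18 for Ccne1.

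Other genes with a higher change at E19 were Edn2 (3.45), Lrr1 (2.97), Fos (2.43), Col4a4 (2.30), Cntn3 (2.27) and Tet1 (2.15). Agr2 differed by 1.67, Gpm6a by 1.40, Rspo1 by 1.34, Slc2a1 by 1.24, Jag2 by 1.15 and Zmat3 by 0.76.

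Genes with a lower change at E19 were Galnt15 (-2.52), Dynap (-2.44), Cxcl14 (-2.43), Naip5 (-2.38), Ptx3 (-2.37), Serpina3n (-2.32), Ddx4 (-2.31) and Mmp7 (-2.23). Ivl differed by -1.82 and Prom1, a membrane protein of simple epithelia, by -0.94. Of the glucocorticoid-responsive genes Pdk4 differed by -1.87, Errfi1 by -1.58 and Tsc22d3 by -0.98.

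The call of the difference was lost under at least 1 alternative for Ccne1, Cxcl14, Dynap, E2f8, Fos, Gpm6a, Ivl, Jag2, Rspo1, Serpina3n, Tsc22d3 and Zmat3.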

How the results depend on the processing

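Testing every probe set on its own, which tests more units, called 5536 (2957 higher, 2579 lower), against 2721 genes. It called 1538 for the difference from E18, against 718 genes, and 2687 for that from E15, against 1170 genes. Leaving out 1 array gave 1364 to 1990 genes at E19 (897 to 1332 higher, 467 to 658 lower), 333 to 687 for the difference from E18 (269 to 517 higher, 63 to 170 lower) and 601 to 1102 for the difference from E15 (366 to 679 higher, 235 to 423 lower), with fewer samples in the fit. Median centring gave 837 higher genes of 972 for the difference from E18, which is 86.1% higher, against 75.5% of 718, and array weights gave 282 lower of 1040. An actin covariate left 30 genes for the difference from E15 (18 higher, 12 lower). The cause was not tested. The other alternatives moved these counts by less than 1.5 times.

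Replicate numbers did not pair the arrays, with a correlation of deviations at E19 of -0.003. With the replicate block 2720 genes were called at E19 (1857 higher, 863 lower), 660 for the difference from E18 and 1145 for that from E15.

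Of 140 named genes called at E19, 85 kept the call in every alternative that tested them, 16 lost it only when 1 array was left out, and 39 lost it in another alternative. Mbp turned to 0.43 with the mean of its probe sets, and no other named gene changed sign. Of 60 named genes with several kept probe sets 57 had 1 sign in all. With 2 arrays a group the number of arrays limits what can be called, and the sex of the arrays moves with genotype at E19.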
